A study of Mus musculus with 14 samples.

Results

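The genes described here are the 200 mRNAs whose share of the library rose most between the germinal vesicle (GV) stage and ovulation in control mouse oocytes. CPM (a count divided by the library total, times 1e6) was averaged over the control libraries of each stage. Of 16196 genes listed at both stages, 6044 reached a mean of 10 CPM in ovulated control oocytes, and from these the 200 with the highest ratio of ovulated to GV mean (0.1 CPM added to each) were taken. The genes were thus chosen by the CPM values of the control libraries of both stages, so the rise in control oocytes is given as a description, without a test. What the choice did not use are the oocytes lacking Mff, and in them all 200 genes also rose (edgeR, adjusted p under 0.05), against 23.0% of all 12657 genes tested. Control oocytes (WT) came from Mff fl/fl mice, whose Mff alleles carry loxP sites. Knockout oocytes (CKO) came from Mff fl/fl mice that also carry Gdf9-Cre, a recombinase driven by the promoter of an oocyte growth factor gene and active in oocytes of early follicles onward. Mff encodes a receptor for the fission machinery on the outer mitochondrial membrane. There were 4 WT and 4 CKO libraries of GV oocytes, and 3 WT and 3 CKO libraries of ovulated oocytes, numbered from 1 within each group. The labels give no ages and no number of animals or oocytes per library. P-values therefore cover only the variation among these libraries, which may be technical. Each stage was deposited as a table of its own, with 18194 genes for GV and 16509 for ovulated oocytes. Stage and any difference in handling between these sets cannot be told apart, and the CKO libraries share this division with the WT libraries.

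A GV oocyte rests in prophase of meiosis I and holds mRNA stored during growth, and transcription is largely silent from the end of growth through ovulation. In that time many stored mRNAs are degraded, while others that were kept dormant with short poly(A) tails receive longer tails and are translated. Tail extension is directed by the cytoplasmic polyadenylation element (CPE), a U-rich site close to the AAUAAA cleavage signal that is bound by CPEB proteins. The libraries were made by SMART-Seq II, in which an oligo(dT) primer starts the cDNA on the poly(A) tail. A CPM value is a share of a library. A gene can therefore rise in CPM because it gave more cDNA or because other mRNAs gave less, and the counts do not tell these apart. Fewer oocytes and less RNA per oocyte cannot be told apart either.

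Sites that match the CPE sequence were found near the 3′ end of 69 of the 197 genes whose annotated 3′ UTR has at least 100 bases. The search covered the last 100 bases of the 3′ UTR of 1 GENCODE M21 transcript per gene (GRCm38), on the sense strand, for TTTTAT or TTTTAAT, and for the cleavage signals AATAAA or ATTAAA. A CPE match can overlap a signal, as in TTTTAATAAA. The sites below are shown because they belong to genes whose values are given in full further on, or are examples of a match ending close to a signal. Each line gives 30 bases, 5′ to 3′ on the mRNA strand. Capitals mark 1 CPE match and the last signal of the 100 bases, and further matches or signals are not marked.
Pim1, chr17:29496068-29496097, plus strand: tTTTTATacttggcattttttgAATAAAaa
Insig1, chr5:28078631-28078660, plus strand: ttttttttacTTTTATTAAAggttcaaaac
Lsm14a, chr7:34344661-34344690, minus strand: tgtTTTTAATaaaggccatggAATAAAgag
Kdm1a, chr4:136550565-136550594, minus strand: tttTTTTAATatattttgagAATAAAactt
Ocrl, chrX:47965831-47965860, plus strand: tattgcaaTTTTATgAATAAAtatatgttg
Setd1a, chr7:127800083-127800112, plus strand: cacatTTTTATaattgtgATTAAActttat
Psip1, chr4:83455685-83455714, minus strand: tgtaaattgTTTTAATTAAAgttttttcta
Llgl2, chr11:115855737-115855766, plus strand: aaaactgagtTTTTAATAAAcaccttgttt
Atf6b, chr17:34655027-34655056, plus strand: cttttTTTTATtattattaAATAAAcaacg
Fam199x, chrX:137082461-137082490, plus strand: aaccttttgtTTTTAATAAAtgtgagttaa
The sites shown do not stand in proportion. For 65 of the 69 genes 1 site was taken, the match nearest upstream of the last signal where there was one. Of these 65 sites 28 had the last signal of the 100 bases within the 30 bases and 37 did not. An earlier signal was not counted. Those of Wtap and Mybl1, given in full below, are examples without a signal in the 30 bases.
Wtap, chr17:12966866-12966895, minus strand: TTTTATgaactgttgtgtcctgttaatgca
Mybl1, chr1:9667482-9667511, minus strand: aaattgagtttTTTTAATatatgaaaaact

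Shares are of genes with a 3′ UTR of at least 100 bases. A CPE match stood in this window in 35.0% of the 197 genes, in 25.4% of the other genes at or above 10 CPM in ovulated WT oocytes (1406 of 5544) and in 19.2% of 14527 genes listed at both stages. A cleavage signal was found in 91.4% of the 197 genes and in 84.7% of the 5544, and a CPE match upstream of a signal in 29.4% and 18.9%. The annotated 3′ UTRs of the 200 genes were longer, with a median of 1814.5 bases against 1159.5, and so were the whole transcripts, with 4398 against 3240 bases. When the 6044 genes were divided into 10 equal parts by their WT ratio, the share with a CPE match was 14.6% and 13.4% in the lowest 2 parts and 35.1%, 32.4% and 33.4% in the highest 3. The share of the 197 genes was thus no higher than that of the eighth part. The median 3′ UTR went from 590 bases in the lowest part to 1934.5 in the highest. The same division by the CKO ratio, over the 6663 genes of at least 10 CPM in ovulated CKO oocytes, gave 13.1% to 32.1% and 489 to 1740 bases. With the genes in 3 equal groups by 3′ UTR length, the median WT ratio in the shortest group was 1.27 without a CPE match and 2.52 with one, in the middle group 2.07 and 2.83, and in the longest 2.76 and 3.15. The ratio was thus higher with a match at each length and higher with length in both classes. A match is a run of letters in an annotated transcript and does not show that the site is used. For the other 128 genes only the absence of these letters from this window is known.

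**Figure D1:**
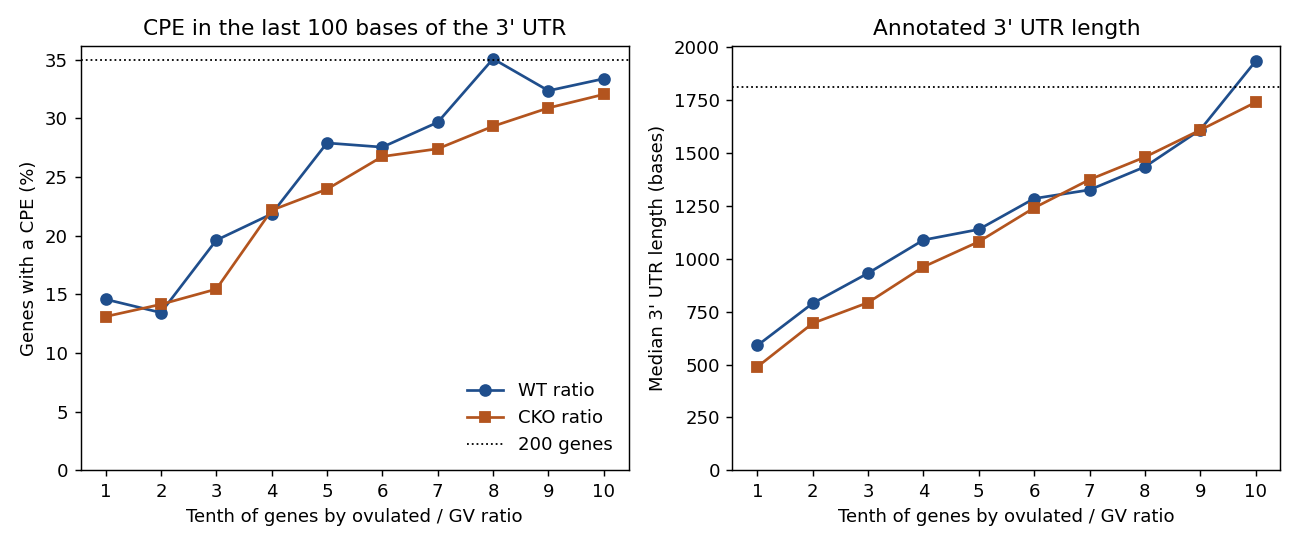
Share of genes with a CPE match in the last 100 bases of the 3′ UTR (left, %) and median annotated 3′ UTR length (right, bases), in 10 equal parts of the genes by the ratio of ovulated to GV mean CPM. Blue circles order genes by the WT ratio and orange squares by the CKO ratio, and the dotted line is the value of the 200 genes. Both measures are higher in the upper than in the lower parts under either order, and the motif share in the WT order levels off at 32.4% to 35.1% in the highest 3 parts, beside 35.0% for the genes described here.

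Library totals were 26575593 to 28847424 counts. Mff itself, the check of the labels, measured 531 to 663 CPM in GV WT, 34.0 to 38.0 CPM in GV CKO, 346 to 723 CPM in ovulated WT and 39.2 to 66.8 CPM in ovulated CKO libraries. Of the 8 GV libraries, 3 stood apart: WT 2, CKO 1 and CKO 2. Their 100 most abundant genes held 38.1%, 35.2% and 42.4% of counts, whereas this share was 48.2% to 51.1% elsewhere at the GV stage and 24.99% to 35.4% after ovulation. In 198 of the 200 genes the highest GV value was in 1 of these 3 libraries. The share of all genes of at least 10 CPM in ovulated WT for which this held was not computed. Among those genes GV WT 2 was the highest GV WT library in 79.1%, and GV CKO 1 the highest GV CKO library in 61.1%. Results that rest on these 3 libraries are given with and without them, and their part in the results was not tested. Summed CPM of oocyte marker genes was 20301 to 33021 in GV and 14579 to 19026 in ovulated libraries. Markers of granulosa and cumulus cells, which surround the oocyte, summed to 652 to 842 CPM in GV, 1035 to 1328 CPM in ovulated WT and 557 to 956 CPM in ovulated CKO libraries, so ovulated WT and CKO did not overlap. Markers of oviduct epithelium summed to 44.7 to 100.1 CPM in GV and 154 to 302 CPM in ovulated libraries, and those of blood, immune and stromal cells to 27.4 to 59.9 and 74.3 to 151 CPM. Both sums were higher in every ovulated than in every GV library. The part of such cells in the changes given here was not tested. Of defining markers, Ptx3 of cumulus cells was at 0 in 7 of 8 GV and 5 of 6 ovulated libraries. Cyp19a1 of granulosa cells was at 0 in none, with 32.4 to 56.9 CPM in GV and 52.9 to 91.6 CPM in ovulated libraries, and Cyp11a1 measured 5.40 to 14.99 and 1.25 to 3.09 CPM. Fshr and Star of the same cells were at most 1.29 and 3.37 CPM in GV and 0.34 and 1.09 CPM in ovulated libraries. The endothelial marker Pecam1 measured 16.2 to 36.2 CPM in GV and 49.3 to 130.4 CPM in ovulated libraries, and the leukocyte marker Ptprc was at 0 in 7 of 8 GV libraries. Col1a1 of stroma and Hbb-bs of blood were at most 0.75 and 2.18 CPM in GV and 0.22 and 0.74 CPM in ovulated libraries. The oviduct marker Ovgp1 measured 0.10 to 0.94 CPM in GV and 0.04 to 2.41 CPM in ovulated libraries. Pax8 was at 0 in 6 of 8 GV libraries and not listed after ovulation, and Foxj1 was listed at neither stage. None of the 200 genes is on the lists of markers of granulosa, blood and stromal, or oviduct cells used here. Only 5, 1 and 1 of these markers reached the 10 CPM in ovulated WT that the choice required, so their absence says little.

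The 200 genes together took 0.201%, 0.760%, 0.313% and 0.201% of counts in GV WT libraries 1 to 4. In GV CKO libraries 1 to 4 they took 1.19%, 0.456%, 0.253% and 0.279%. After ovulation the share was 3.20%, 3.81% and 2.37% in the WT libraries and 3.36%, 3.12% and 3.08% in the CKO libraries. The ovulated libraries were thus all above the GV libraries in both genotypes, and the ovulated CKO values lay within the range of the ovulated WT values. The group means were 0.369% ± 0.266 in GV WT (SD, n = 4), 0.546% ± 0.442 in GV CKO (SD, n = 4), 3.13% ± 0.721 in ovulated WT (SD, n = 3) and 3.19% ± 0.151 in ovulated CKO (SD, n = 3). The median level of the 200 genes was 17.8, 28.8 and 11.4 CPM in GV WT 2, CKO 1 and CKO 2 and 4.89 to 7.64 CPM in the other 5 GV libraries. In GV WT 2, CKO 1 and CKO 2, the GV libraries of highest median, the 100 most abundant genes also held the smallest shares. Between stages, GV CKO 1 and ovulated WT 3, with near equal top-100 shares of 35.2% and 35.4%, had medians of 28.8 and 59.5 CPM. The part of the top-100 share in this level was not tested.

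**Figure D2:**
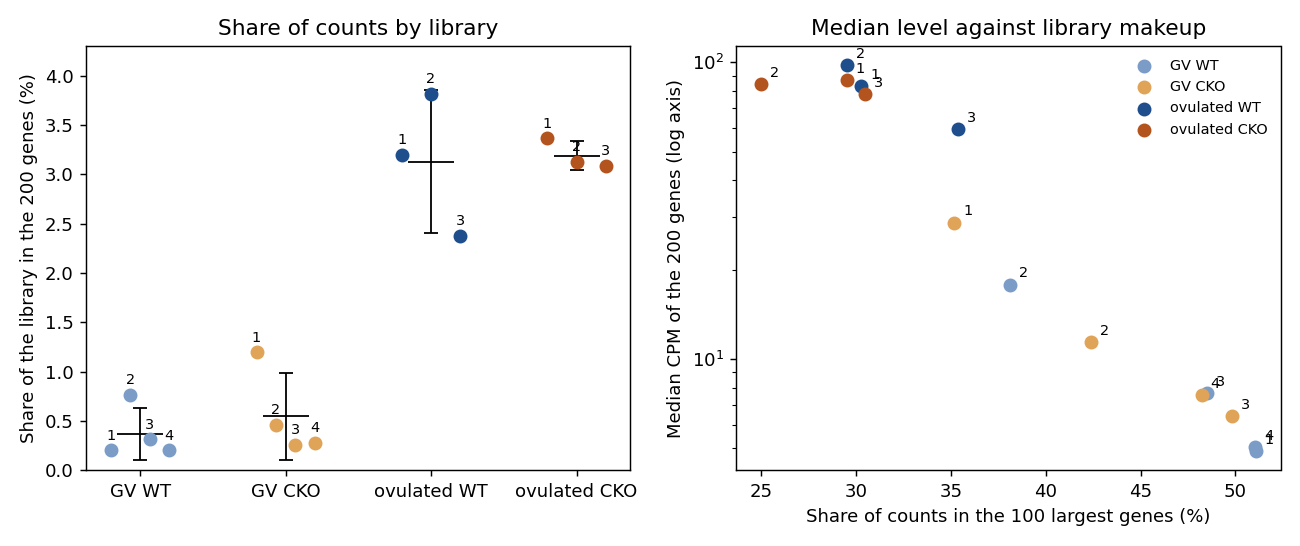
Share of each library's counts in the 200 genes (left, %; points are libraries with their number, bars mean and SD) and median CPM of the 200 genes against the share of counts in the 100 most abundant genes (right, log axis). GV libraries lie between 0.201% and 1.19% and ovulated libraries between 2.37% and 3.81%, and GV WT 2, CKO 1 and CKO 2 lie between the other GV libraries and the ovulated ones.

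In WT oocytes the ratio of ovulated to GV mean ran from 24.5 for Insm1 to 7.32 for Zbtb45, with a median of 8.40 over the 200 genes and 2.20 over the 6044. At the lower limit stood Gnai2, Kbtbd7 and Zbtb45 inside, with ratios of 7.33, 7.32 and 7.32, and Tmem8b, Zfp981 and Siah2 outside, with 7.32, 7.31 and 7.31. No gap separated them. The choice favours genes that were scarce before maturation, so their levels are a description. The GV WT mean of the 200 was under 10 CPM in 102 genes and under 1 CPM in Pim1 and Rap2c, and it was at most 239 CPM. In ovulated WT oocytes 89 of them reached 100 CPM, with a median of 80.8 CPM over the 200 genes and 49.7 over the 6044. The share of the 6044 under 10 CPM in GV WT or at 100 CPM after ovulation was not computed. The lowest count of any of them in a GV WT library was 5.

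The rise was also found in oocytes without Mff. All 200 genes passed the filter on low counts, and in the CKO libraries alone all 200 were higher after ovulation and 0 lower, against 38.9% higher and 17.5% lower among the 6044 genes of at least 10 CPM in ovulated WT. Their log2 fold changes, after TMM scaling, ran from 1.37 for Hnmt to 4.12 for Pim1 with a median of 2.26, against 0.50 over the 6044 genes and -0.08 over all genes tested. Adjusted p lay between 8.48e-06 and 0.0138 (edgeR). A log2 change of at least 2 was reached by 171 of the 200 genes and by 5.68% of the 6044. In all 200 genes the 3 ovulated CKO libraries lay above the 4 GV CKO libraries, as they did in 31.6% of all genes tested and 52.2% of the 6044. A count over both genotypes includes the WT libraries that the choice used, so it is a description. In it the lowest of 6 ovulated libraries was above the highest of 8 GV libraries in 195 genes, and in 41.9% of the 6044. The exceptions were Zbtb18, Sav1, H60c, Edem3 and Lrp11. Without GV CKO 1 and CKO 2 all 200 were still called, with a median log2 fold change of 3.06.

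**Figure D3:**
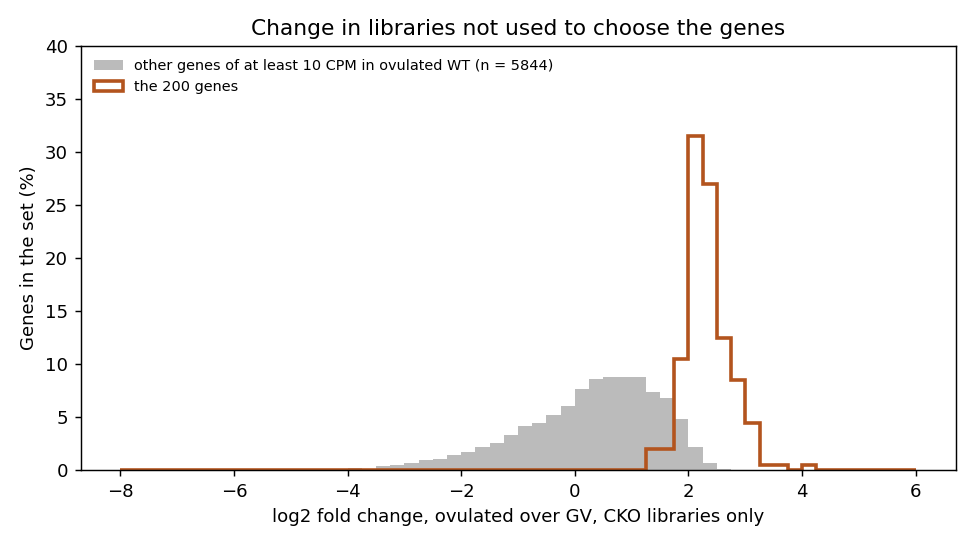
Distribution of the log2 fold change from GV to ovulated, fitted on the CKO libraries alone, for the 200 genes (orange outline) and the other 5844 genes of at least 10 CPM in ovulated WT (grey), each as percent of its set. The 200 genes lie between 1.37 and 4.12, in the upper tail of the grey distribution.

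On the CPM scale the CKO ratio of ovulated to GV mean was 3.30 to 19.98, with a median of 5.80 (1.87 over the 6044 genes). It reached 2 in all 200 genes and in 46.9% of the 6044, and 4 in 192 genes and in 12.5%. Ranked by the same formula on CKO libraries, 122 of the 200 genes (61%) were among the 200 highest of 6663, and 172 among the 400 highest. Their median place was 159, and the last of them stood at 1278. The CKO ratio was at or above the WT limit of 7.32 in 46 genes and above the gene's own WT ratio in 9: Upf1, Llgl2, Malt1, Wtap, Midn, Zdhhc18, Elavl3, Tcof1 and Akt1. The choice by WT values pushes the WT ratio up, so a lower CKO ratio is no sign of a genotype effect. The ratios also moved with the 3 GV libraries that stood apart. Without GV WT 2, the median WT ratio was 13.1, and without GV CKO 1 and CKO 2 the median CKO ratio was 12.6. The CKO ratio without GV CKO 1 and CKO 2 was at or above 7.32, the limit that holds with all WT libraries, in 189 genes. It was above the gene's WT ratio without GV WT 2 in 71. GV CKO 1 was the highest of the GV CKO libraries in 194 of the 200 genes (61.1% of the 6044), and GV WT 2 the highest of the GV WT libraries in 196 (79.1%).

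**Figure D4:**
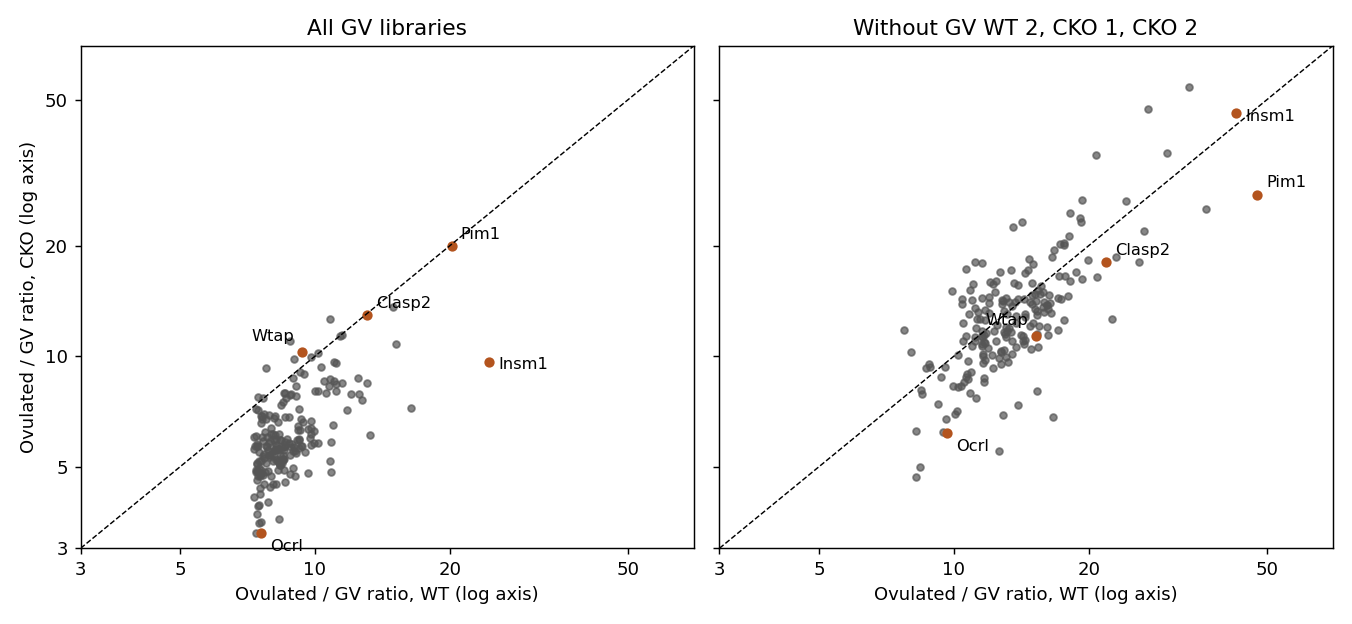
Ratio of ovulated to GV mean CPM in CKO against WT for the 200 genes (log axes, dashed line of equal ratios), with all GV libraries (left) and without GV WT 2, CKO 1 and CKO 2 (right). With all libraries 9 genes lie above the line and the CKO median is 5.80, and without the 3 libraries 71 lie above it and the CKO median is 12.6.

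Proteins that bind RNA or decide the fate of mRNA made up 15 of the 200 genes by a grouping made after the values were seen, with CKO log2 fold changes of 1.98 to 3.24. Below, values are in the order of library numbers, and parentheses after CKO values hold the log2 fold change from GV to ovulated in CKO with its SE and edgeR adjusted p. Coordinates are those of RefSeq genes in GRCm38.p6. Wtap (Entrez gene 60532, chromosome 17, 12966799 to 12992543), a subunit of the complex that methylates adenosines in mRNA, was the most abundant of the 200 by CPM and per length, at 1220.0 ± 340 FPKM in ovulated WT (SD, n = 3). It measured 141, 516, 193 and 107 CPM in GV WT libraries 1 to 4 and 1765, 2030 and 2923 CPM in ovulated WT. In CKO it measured 267, 184, 211 and 163 CPM at the GV stage and 1606, 1721 and 3038 CPM after ovulation. The ovulated libraries were far above every GV library, and the genotypes overlapped at both stages. Its CKO log2 fold change was 2.96 (SE 0.34, edgeR adjusted p = 2.45e-05).

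Upf1 (Entrez gene 19704, chromosome 8, 70331493 to 70353423), the helicase of nonsense-mediated decay, read 12.0, 14.98, 10.6 and 8.26 CPM in GV WT and 12.2, 6.39, 8.40 and 8.80 CPM in GV CKO libraries. After ovulation it read 149, 140 and 84.3 CPM in WT and 120, 131 and 90.1 CPM in CKO. Its GV levels varied little, also in the 3 libraries that stood apart, and its CKO log2 fold change of 3.24 (SE 0.30, adjusted p = 9.46e-06) was among the 4 highest of the 200. Lsm14a, an RNA-binding protein of processing bodies, read 76.1, 225, 108 and 77.7 CPM in GV WT and 961, 1123 and 705 CPM in ovulated WT. The CKO libraries gave 384, 131, 85.4 and 94.7 CPM before and 1002, 1123 and 941 CPM after ovulation (log2 fold change 2.26, SE 0.38, adjusted p = 0.000297). GV CKO 1 was at 384 CPM where the other GV CKO libraries were at most 131 CPM. Khsrp, which binds AU-rich elements and recruits decay enzymes, had CKO means of 6.03 ± 6.41 CPM at the GV stage (SD, n = 4) and 50.7 ± 1.48 CPM after ovulation (SD, n = 3), with a CKO log2 fold change of 2.82.

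The CPEB family, which binds the CPE, was split. Cpeb4 (Entrez gene 67579, chromosome 11, 31870104 to 31935635) read 3.92, 24.6, 8.38 and 3.47 CPM in GV WT and 113, 143 and 79.3 CPM in ovulated WT libraries. Values in CKO were 40.4, 15.3, 7.18 and 6.31 CPM and then 131, 94.0 and 113 CPM, which is 2.45 on the log2 scale (SE 0.44, adjusted p = 0.000515). Cpeb3 read 7.11, 16.7, 7.02 and 4.33 CPM in GV WT and 86.4, 97.1 and 45.1 CPM in ovulated WT. Both genes had ovulated CKO libraries above all GV libraries and within or next to the ovulated WT values. Cpeb3 in CKO went from 39.8, 10.6, 4.75 and 6.24 CPM to 91.3, 83.5 and 88.2 CPM (2.28, SE 0.48, adjusted p = 0.00132). Cpeb1 and Cpeb2 are not among the 200 and were looked up as relatives after the values were seen. Cpeb1, the CPEB protein of dormant mRNAs in GV oocytes, fell in CKO, from a mean of 577 ± 170 CPM (SD over 4 libraries) to one of 356 ± 107 CPM (SD over 3) (log2 fold change -1.19, SE 0.35, edgeR adjusted p = 0.0112). Cpeb2 rose, at low level, from 1.93 ± 2.02 to 6.89 ± 1.32 CPM (1.56, adjusted p = 0.0158).

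**Figure D5:**
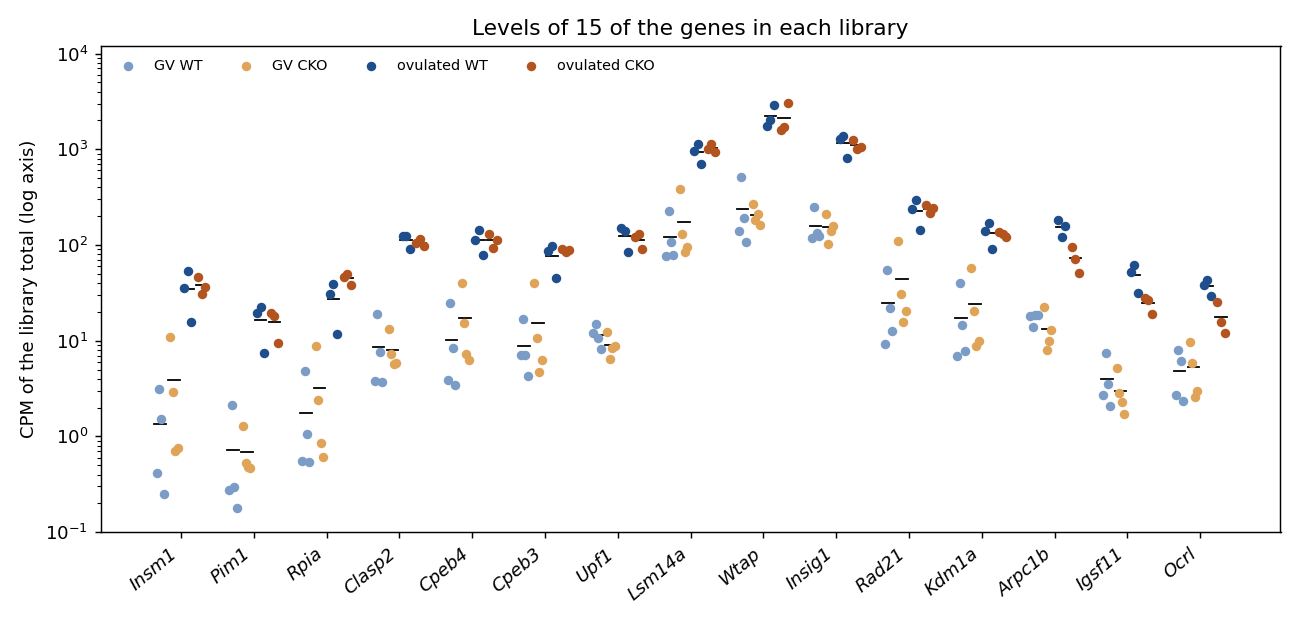
CPM of 15 of the 200 genes in each of the 14 libraries (log axis), with group means as bars, by stage and genotype. Each gene is higher in every ovulated library than in any GV library, and for Arpc1b, Igsf11 and Ocrl the ovulated CKO libraries also lie below the ovulated WT libraries.

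Regulators of chromatin and transcription made up 39 of the genes, with CKO log2 fold changes of 1.47 to 3.11, while 44 of the 200 fell in none of the groups. The share of these roles among the 6044 genes was not computed. Insm1 (Entrez gene 53626, chromosome 2, 146221997 to 146225020), a zinc-finger repressor best known from neuroendocrine cells, had the highest WT ratio. It read 0.416, 3.16, 1.51 and 0.250 CPM in GV WT and 35.3, 53.9 and 15.8 CPM in ovulated WT libraries. Its CKO levels were 11.0, 2.93, 0.700 and 0.758 CPM and then 46.5, 30.6 and 36.5 CPM (3.11, SE 0.63, adjusted p = 0.00111). GV CKO 1 held 11.0 CPM, more than 3 times the highest of the other GV CKO libraries, and the CKO ratio was 9.64 with it and 45.8 without GV CKO 1 and CKO 2. Mybl1, a Myb transcription factor of male meiosis, read 1.73, 10.1, 3.60 and 1.39 CPM in GV WT and 59.9, 66.0 and 35.7 CPM in ovulated WT. Knockout oocytes had 14.5, 6.20, 2.43 and 2.99 CPM and then 60.1, 54.8 and 42.4 CPM (2.72, SE 0.43, adjusted p = 0.000203). The ovulated values of the genotypes overlapped for both genes. Lbx1, a homeobox transcription factor, had a WT ratio of 12.7 and a CKO log2 fold change of 2.74 (SE 0.58, adjusted p = 0.00146).

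Kdm1a (Entrez gene 99982, chromosome 4, 136550533 to 136602787), the lysine demethylase LSD1 whose maternal supply the early embryo needs, read 6.93, 39.6, 14.7 and 7.80 CPM in GV WT and 139, 170 and 90.1 CPM in ovulated WT. In CKO it read 56.9, 20.5, 8.76 and 9.99 CPM and then 138, 131 and 120 CPM (2.17, SE 0.43, adjusted p = 0.000977). On the list of histone and DNA modifiers used here, 5 of the 200 genes are found: Kdm1a, the H3K4 methyltransferase Setd1a, the H3K27 demethylase Kdm6a, the deacetylase Hdac9 and Chd4, the remodelling ATPase of NuRD. Their CKO log2 fold changes were 2.17, 2.48, 1.97, 2.14 and 2.46. Over the list as a whole, 61 of 105 tested genes were higher and 7 lower in ovulated CKO, with a median of 1.15. Over all genes tested 23.0% were higher and 27.9% lower, with a median of -0.08. Over the 6044 genes, which hold 76 of the list, 38.9% were higher and 17.5% lower, with a median of 0.50. Trim28, a corepressor that protects imprinted loci, went from 52.4 ± 47.0 to 260 ± 46.0 CPM in CKO (2.04, adjusted p = 0.000923). Psip1, a reader of methylated H3K36, and Mbtd1, a methyl-lysine reader, measured 645 ± 189 and 741 ± 256 CPM in ovulated WT (SD, n = 3), with CKO log2 fold changes of 2.06 and 2.31. Rb1, the retinoblastoma protein, and Yap1, the effector of the Hippo pathway, had CKO log2 fold changes of 1.99 and 2.56.

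Kinases, phosphatases and their subunits made up 20 of the genes. Pim1 (Entrez gene 18712, chromosome 17, 29490785 to 29496111), a serine/threonine kinase controlled mostly by the amount of its protein, had the largest CKO change of the 200. It read 0.277, 2.14, 0.294 and 0.179 CPM in GV WT and 19.4, 22.8 and 7.42 CPM in ovulated WT libraries. The CKO libraries gave 1.29, 0.526, 0.479 and 0.469 CPM and then 19.5, 18.2 and 9.43 CPM (4.12, SE 0.42, adjusted p = 1.17e-05). Pim1 was close to absent in GV oocytes of both genotypes, and the WT and CKO ratios were 20.2 and 19.98. Without GV WT 2 the WT ratio was 47.5, and without GV CKO 1 and CKO 2 the CKO ratio was 27.5. Catalytic subunits of protein phosphatase PP1 were divided: Ppp1cb and Ppp1cc, both among the 200, rose in CKO by 2.26 and 2.36, while Ppp1ca, looked up after the values were seen, fell by 0.97 on the log2 scale (adjusted p = 0.0388). Akt1, a kinase downstream of PI3-kinase, went from 10.5 ± 6.01 to 81.9 ± 23.8 CPM in CKO (2.59), Mapk8, the stress kinase JNK1, from 58.2 ± 63.3 to 302 ± 39.0 CPM (2.14), and the cAMP phosphodiesterase Pde3b from 24.9 ± 20.8 to 148 ± 26.97 CPM (2.30). Map4k5, a kinase upstream of JNK, had a CKO log2 fold change of 2.03.

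Receptors, adaptors and other signalling genes numbered 19. Acvr2b, a type II activin receptor, read 1.01, 5.46, 2.20 and 1.43 CPM in GV WT and 21.5, 33.0 and 19.2 CPM in ovulated WT, and its CKO log2 fold change was 2.48 (SE 0.44, adjusted p = 0.000428). On the list of growth factors, receptors and channels that holds it, 28 of 59 tested genes were higher and 5 lower in ovulated CKO than in GV CKO oocytes. The background was 23.0% higher and 27.9% lower over all genes tested, and 38.9% and 17.5% over the 6044, which hold 31 of the list. Gnb2 and Gnai2, subunits of heterotrimeric G proteins, had CKO log2 fold changes of 1.75 and 2.32.

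The ubiquitin system gave 13 genes. Ube2d2a, a ubiquitin-conjugating enzyme with close copies among which reads could be split, read 67.8, 229, 90.7 and 66.1 CPM in GV WT and 837, 1137 and 726 CPM in ovulated WT. Values in CKO were 485, 131, 63.7 and 74.4 CPM and then 870.2, 1137 and 1009.9 CPM (2.17, SE 0.47, adjusted p = 0.00164). Its relative Ube2d3, looked up after the values were seen, measured 1780 ± 173 CPM in GV CKO (SD, n = 4), and its CKO log2 fold change was -0.28 (adjusted p = 0.506). Another relative, Ube2d1, rose in CKO (1.04, edgeR adjusted p = 0.0386). Relatives of other genes described here that also rose were Lsm14b (1.94, adjusted p = 0.000873), Lin28b (2.28, adjusted p = 0.000199) and Kdm1b (1.06, adjusted p = 0.0133). Abhd17a (-0.30, adjusted p = 0.649) and Rad21l (0.66, adjusted p = 0.177) did not pass the test. Ubqln2, which shuttles ubiquitinated proteins to the proteasome, read 2.39, 13.7, 4.56 and 2.40 CPM in GV WT and 92.2, 142 and 53.4 CPM in ovulated WT. Its CKO levels were 47.7, 8.75, 2.69 and 3.46 CPM and then 101, 147 and 92.8 CPM (2.67, SE 0.64, adjusted p = 0.00309). GV CKO 1 again stood highest, and the CKO ratio was 7.22 with it and 35.8 without GV CKO 1 and CKO 2. Kbtbd7, an adaptor of cullin-3 ubiquitin ligases, and Psme4, an activator of the proteasome, had CKO log2 fold changes of 1.79 and 2.26.

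Membrane traffic and lipid genes numbered 20. Insig1 (Entrez gene 231070, chromosome 5, 28071412 to 28078662), the endoplasmic reticulum protein that holds back the sterol sensor SCAP, read 119, 249, 133 and 124 CPM in GV WT and 1289, 1362 and 818 CPM in ovulated WT. Knockout oocytes had 212, 101, 140 and 157 CPM and then 1246, 1003 and 1043 CPM (2.44, SE 0.31, adjusted p = 4.35e-05). Per length it ranked 3 of the 200 in ovulated WT, at 475 ± 119 FPKM (SD, n = 3), after Wtap and Romo1. Its relative Insig2, looked up after the values were seen, had a CKO log2 fold change of 0.54 (adjusted p = 0.231). Tmed9, a cargo receptor between the endoplasmic reticulum and Golgi, read 4.16, 5.68, 4.63 and 4.54 CPM in GV WT and 105, 73.0 and 42.0 CPM in ovulated WT. In CKO it read 7.53, 3.72, 3.17 and 3.97 CPM and then 86.0, 40.3 and 25.4 CPM (3.10, SE 0.42, adjusted p = 6.07e-05). Its GV levels lay close together, while the ovulated ones spread more than 3-fold in CKO. Furin, a protease that matures secreted precursors, had WT and CKO ratios of 11.4 and 11.4, and of 16.7 and 19.5 with GV WT 2, CKO 1 and CKO 2 left out.

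The cytoskeleton, spindle and cohesin group held 13 genes. Clasp2 (Entrez gene 76499, chromosome 9, 113740077 to 113919697), which stabilises the plus ends of microtubules, read 3.81, 18.9, 7.60 and 3.68 CPM in GV WT and 123, 124 and 90.0 CPM in ovulated WT. The CKO libraries gave 13.3, 7.32, 5.71 and 5.81 CPM and then 106, 114 and 96.4 CPM (3.34, SE 0.30, adjusted p = 8.48e-06), the smallest adjusted p of the 200. Its paralog Clasp1, looked up after the values were seen, had a CKO log2 fold change of -0.20 (adjusted p = 0.631). Fmn2, the actin nucleator that moves the meiotic spindle to the oocyte cortex, read 20.1, 135, 44.97 and 24.1 CPM in GV WT and 490, 605 and 317 CPM in ovulated WT. Values in CKO were 251, 87.5, 35.1 and 38.7 CPM and then 566, 541 and 556 CPM (2.18, SE 0.46, adjusted p = 0.00131). The ovulated CKO values of Fmn2 lay within the WT range. Rad21, the mitotic kleisin of cohesin, went from 109, 30.4, 15.7 and 20.2 CPM in GV CKO to 260, 218 and 243 CPM in ovulated CKO (2.21, SE 0.44, adjusted p = 0.00102). The microtubule regulators Slain1 and Slain2 had CKO log2 fold changes of 2.27 and 2.17, and Sycp3, of the synaptonemal complex, had 1.64.

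Transport and metabolism gave 15 genes. Rpia, an isomerase of the pentose phosphate pathway, read 0.555, 4.82, 1.07 and 0.536 CPM in GV WT and 30.8, 39.6 and 11.8 CPM in ovulated WT. Its CKO levels were 8.86, 2.40, 0.847 and 0.613 CPM and then 46.2, 50.03 and 37.8 CPM (3.58, SE 0.59, adjusted p = 0.000279). Its mean was 1.63 times higher in ovulated CKO than WT, with 1 CKO library inside the WT range, and the difference did not pass the test (log2 fold change 0.54, adjusted p = 0.373). Romo1, a small protein of mitochondrial membranes, reached 667 ± 113 FPKM in ovulated WT and 714 ± 273 FPKM in ovulated CKO (SD, n = 3 each). Slc24a5, a cation exchanger of pigment cells, read 14.5, 14.4, 5.29 and 0.363 CPM in GV CKO and 94.5, 40.1 and 86.5 CPM in ovulated CKO (2.79, SE 0.73, adjusted p = 0.00658). Its GV CKO values spread widely, and without GV CKO 3 the change of 2.69 no longer passed the test. The polymerase subunit Rev3l, of DNA repair, and Bcl2l2, which opposes cell death, had CKO log2 fold changes of 2.27 and 2.97.

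Of the other genes of high rank, Heca had a WT ratio of 13.3 and a CKO log2 fold change of 2.41 (SE 0.52, adjusted p = 0.00154). Naa30, the catalytic subunit of the N-terminal acetyltransferase NatC, reached 861 ± 209 CPM in WT oocytes after ovulation and 777 ± 43.4 CPM in CKO (SD, n = 3 each), and its CKO log2 fold change was 1.83 (adjusted p = 0.000982). Fam199x measured 568 ± 186 CPM in ovulated WT (SD, n = 3), with a CKO log2 fold change of 2.19.

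The smallest CKO changes were those of Hnmt (1.37), Ocrl (1.42), Bhlhe41 (1.47), Prl8a2 (1.49), Edem3 (1.61), Gclc (1.64), Sycp3 (1.64) and Gnb2 (1.75). These are also the 8 genes whose CKO ratio stayed under 4. Hnmt, which inactivates histamine, read 25.2, 20.4, 13.5 and 8.95 CPM in GV CKO and 61.5, 41.5 and 65.8 CPM in ovulated CKO. In WT it read 6.55, 14.7, 11.5 and 10.1 CPM and then 71.3, 108 and 60.0 CPM. Its CKO rise still exceeded the spread between libraries (SE 0.34, adjusted p = 0.0041). Without ovulated CKO 1 the changes of Ocrl (1.00) and Edem3 (1.46) no longer passed the test.

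Whether CKO oocytes reached the WT level after ovulation was compared next. The choice favoured genes with high ovulated WT values, which pushes this comparison down, so its counts are a description. The ovulated CKO mean was within 1.5 times of the WT mean in 187 of the 200 genes, and in 77.4% of the 6044. It was more than 1.5 times higher in Rpia, Ccdc112, Otud1 and Lrp11 and lower by as much in 9 genes. The median CKO/WT ratio of ovulated CPM was 1.03 over the 200 genes and 1.02 over the 6044, but after TMM scaling the median log2 difference was -0.13, so no direction is given for the group. In the edgeR fit of ovulated libraries 0 of the 200 were higher in CKO and 3 lower, where 6.44% of 12010 genes were higher and 1.40% lower (4.27% and 2.15% of the 6044). Ovulated CKO libraries lay wholly above WT in 4 of the 200 genes (14.7% of the 6044) and wholly below in 5 (10.3%).

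The 3 lower genes were Arpc1b, Igsf11 and Ocrl. Arpc1b (Entrez gene 11867, chromosome 5, 145114256 to 145128186), a subunit of the Arp2/3 complex that branches actin filaments, read 182, 120 and 157 CPM in ovulated WT and 95.4, 70.6 and 51.1 CPM in ovulated CKO (log2 fold change -1.27, SE 0.29, adjusted p = 0.0130). Igsf11 (Entrez gene 207683, chromosome 16, 38892476 to 39027159), an adhesion protein of the immunoglobulin superfamily, read 52.7, 62.3 and 31.2 CPM in WT and 28.0, 26.6 and 19.08 CPM in CKO (-1.17, SE 0.29, adjusted p = 0.0236). Ocrl (Entrez gene 320634, chromosome X, 47912418 to 47966428), an inositol 5-phosphatase of the endocytic pathway, read 38.2, 43.5 and 29.5 CPM in WT and 25.5, 15.8 and 11.9 CPM in CKO (-1.24, SE 0.32, adjusted p = 0.0298). The ovulated genotypes did not overlap for any of the 3, nor for Ntn1, the secreted guidance protein netrin-1 (-1.12, adjusted p = 0.0509), and Bhlhe41, a transcriptional repressor of the circadian clock (-0.88, adjusted p = 0.0758). All 3 still rose from GV to ovulated in CKO. The log2 fold changes were 2.06 for Arpc1b and 2.66 for Igsf11 beside the 1.42 of Ocrl. The calls rest on few libraries. Of the 200 genes 0 were called without ovulated CKO 2 and 0 without ovulated WT 1, 1 each without CKO 3, WT 2 or WT 3, and 5 without CKO 1.

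At the GV stage 0 of the 200 genes were called between genotypes, and 0.00813% of 12298 genes in each direction (edgeR; of the 6044, 0 higher and 0.0165% lower), with 6 of the 200 at an unadjusted p under 0.05 and 0 called with DESeq2. The GV CKO mean was above the WT mean in 182 genes, with a median ratio of 1.51 (1.12 over the 6044), a direction that the choice of low GV WT values favours. After TMM scaling the median log2 difference was 0.45, without GV CKO 1 it was -0.11, without GV WT 2 it was 0.82, and without GV WT 2, CKO 1 and CKO 2 it was 0.08. At an unadjusted p under 0.05 there were 76 of the 200 genes without GV WT 2, 75 of them higher in CKO, and still 0 were called. The share of all genes tested at an unadjusted p under 0.05 was not computed, here or for the interaction below. These counts therefore have no background and are a description. A genotype effect that differed between the stages (the interaction term) passed the test in 0 of the 200 genes, where 3.17% of 13199 genes were more positive and 0.0833% more negative after ovulation (1.39% and 0.0165% of the 6044). At an unadjusted p under 0.05 there were 5, and DESeq2 called 0. The choice of genes by their WT rise pushes this term down, so a negative value is no sign of a genotype effect. The median of this term over the 200 genes was -0.62 on the log2 scale, and 7 were positive. Without GV WT 2 the median was -0.98 and 69 genes had an unadjusted p under 0.05, all negative. Without GV CKO 1 the median was -0.14 with 2 such genes, and without the 3 libraries that stood apart -0.26 with 4.

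Other genes of the same pathways gave the surroundings of the 200 in the CKO libraries. Of 63 tested factors of mRNA tails and decay, 26 were higher and 11 lower after ovulation, with a median log2 fold change of 0.64. Over all genes tested 23.0% were higher and 27.9% lower (38.9% and 17.5% of the 6044), which is also the background of the lists that follow. Beside Cpeb3, Cpeb4 and Lsm14a, which are among the 200, the deadenylases Cnot6 (2.05) and Cnot6l (1.86), the decapping factor Dcp1a (1.37), the translational repressor Pum2 (1.95) and the terminal uridylyltransferase Tut7 (2.08) rose, and the oocyte RNA-binding proteins Patl2 (-2.70) and Zar1l (-3.88) and Cnot10 of the deadenylase complex (-3.44) fell. They were picked from the list after their values were seen. None of 36 dormant maternal mRNAs known to be translated during maturation is among the 200. Of them 34 reached 10 CPM in ovulated WT, and with 200 of 6044 genes chosen the absence of so few says little. Of the 36, 11 were higher and 4 lower, such as Cnot6l and Bub1b (1.20) against Tacc3 (-3.80). Of 82 cytosolic ribosomal proteins 3 were higher and 67 lower (median -2.29), and of 76 respiratory chain subunits 6 were higher and 43 lower (median -1.13). On these lists 35 and 41 genes reached 10 CPM in ovulated WT, too few for 0 among the 200 to say much.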

How the data were processed

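Per the labels' protocols, oocytes were lysed and first-strand cDNA was made with SMART-SeqII and preamplified by PCR. The authors deposited a table of estimated counts per gene for each stage (17.6% of GV and 18.4% of ovulated values above 0 are not whole, tolerance 0.001) and a table of FPKM per gene for each stage, per the file headers. Per the submitters' processing notes the genome build was mm10. The aligner and counter were not given in the sources used here. Members and gene lists were chosen with earlier results of these data known, and role groups and relatives after values were seen. CPM is count over column total. Estimated counts were rounded and fitted with edgeR 4.0.16 (filterByExpr, TMM, robust quasi-likelihood F test, Benjamini-Hochberg over all genes tested, adjusted p under 0.05) in R 4.3.3. The change from GV to ovulated was fitted on the CKO libraries alone. CKO against WT was fitted within each stage, and the interaction over all 14 libraries. Alternatives used DESeq2 1.42.0, limma 3.58.1, other filters and left-out libraries. The CKO fit was tested on simulated data. Genes named are the 10 of highest WT ratio and the 10 of highest ovulated WT CPM, the 8 lowest and 4 highest CKO changes, members on the gene lists, members called between ovulated genotypes and those at the limit of the choice; others were named after their values were seen. Same-numbered libraries were not paired by the labels. Coordinates are GRCm38, the assembly that mm10 names. The cDNA kit does not keep strand, so reads of genes that overlap on opposite strands cannot be told apart.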

Additional observations from a re-analysis of the deposited data

Results flagged for a closer look

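For the 20 genes shown by library and for the share of counts in the 200 genes, groups of 4 GV libraries were examined for a single library far from the others, by the gap to its neighbour over the range of the group (Dixon's 95% critical value for 4 samples). Of 42 groups 11 exceeded it. Chance gives about 1 in 20 for a single group, but these groups share the same libraries, so that rate does not apply to the count. GV WT 2 was far above the other GV WT libraries for Pim1 (2.14 CPM), Rpia (4.82 CPM), Insig1 (249 CPM) and Ube2d2a (229 CPM), and far below them for Arpc1b (13.8 CPM). GV CKO 1 was far above the other GV CKO libraries for Pim1 (1.29 CPM), Ubqln2 (47.7 CPM), Lsm14a (384 CPM), Ube2d2a (485 CPM), Cpeb3 (39.8 CPM) and Rad21 (109 CPM). Arpc1b is the 1 gene of these whose outlying library lay below the rest.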

How the results depend on the processing

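In the CKO libraries 198 to 200 of the 200 genes stayed called when any 1 library was left out, and the median log2 fold change was 2.07 to 2.79. DESeq2 called 198, a test against a log2 fold of 1 called 191, and all 174 tested were called at a mean of at least 10 CPM. The count over all genes, 6442, was 5381 to 6706 without 1 library, 4077 at a mean of at least 10 CPM and 2965 against a log2 fold of 1. The 3 genes called between ovulated genotypes became 5 with DESeq2, 5 with no filter, 1 on log2(FPKM + 0.1), 13 with limma's quality weights and 0 to 5 without 1 library. The labels do not pair the libraries by replicate number. Deviations of same-numbered libraries from their group means had correlations of -0.53 to 0.63, which do not settle whether they share a batch. With the replicate numbers as a block, 7 genes were called between ovulated genotypes and 1 in the interaction, and all 200 in the CKO change. Of 844 values of named genes under the alternatives, 819 kept direction and call, 25 lost the call and 0 reversed; the cause was not tested. The list itself depends on the choices: 145 of the 200 genes were also chosen from FPKM, 166 with 1 CPM added, 185 after TMM scaling, and 153 to 188 when a WT library was left out, 153 of them without GV WT 2. Of the 200 genes, 102 had a GV WT mean under 10 CPM, where library differences are large.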
